A study of Drosophila melanogaster with 9 samples.

Results

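Bone morphogenetic protein (BMP) ligands and the extracellular proteins that regulate them are described here in embryos mutant for *Kahuli* (*Kah*). The 9 genes were chosen by name from the 14306 genes listed in both deposited tables. They are the ligands *dpp*, *gbb* and *scw*, the Tolloid proteases *tld* and *tok*, and the binding proteins *sog*, *tsg*, *cv* and *cv-2*. The rule itself used no measured value, but the members and the other gene lists were chosen with earlier results of these data known. All 9 were listed in both tables, and 7 of 9 passed the filter on low values.

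RNA was sequenced from whole *Drosophila melanogaster* embryos of 3 genotypes, with 3 biological replicates each and 9 libraries in all. *Kah* encodes a zinc finger transcription factor of the Scratch family. In *Kah-deltaATG* the site where translation is thought to begin was cut out together with much of the exon around it, in *Kah-deltaZnF* the zinc fingers were removed and the reading frame kept, and *w1118* is the control strain, labelled wild type. Embryos of each genotype were collected 5 to 16 h after egg laying. The alleles were made by CRISPR/Cas9 in a *vasa-Cas9* strain, so an effect of the allele and of the line's background cannot be told apart. The zygosity of the collected embryos is not given in the sources used here. The methods describe a single embryo collection per genotype, and whether the replicates came from separate collections is not clear, so p-values measure only the spread between these libraries.

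BMP ligands are secreted dimers that bind a complex of type I and type II receptors, which phosphorylates the Smad protein Mad. In the fly blastoderm, Sog and Tsg bind the ligands and carry them away from their source, and Tolloid cleaves Sog and sets them free on the dorsal side. Later in embryogenesis Dpp signals in the midgut visceral mesoderm, among other tissues.

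Libraries held between 17990440 and 20036762 reads on genes. The mitochondrial share of the reads was 8.67% to 11.2% in 3 libraries, which were replicates 2 and 3 of *w1118* and replicate 1 of *Kah-deltaZnF*, and 15.3% to 16.6% in the other 6. In both *w1118* and *Kah-deltaZnF*, replicate 1 differed most from the other replicates of its group. Values are normalized counts, the reads on a gene divided by a size factor for the library. Each mutant was compared with the *w1118* libraries of its own table, so both comparisons share the 3 controls. Testing with limma on log2(value + 1), a scale that understates the change of low genes, took in the genes that reached 10 in 3 or more of the 6 libraries. To be called, a gene needed a log2 fold change of 0.59 or more in size and a Benjamini-Hochberg adjusted p of 0.05 or less. In bulk RNA, fewer cells that express a gene and less RNA per cell cannot be told apart. Markers of neurons, muscle, trachea, glia and visceral mesoderm were detected in all libraries, while the larval genes *Sgs3*, *Lsp2* and *Lsp1alpha* stayed at or under 3 in every library.

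The *Kah* transcript was more abundant in all mutant libraries than in all controls. Its normalized count in *Kah-deltaATG* was 1700, 1569 and 1620, against 380, 357 and 369 in *w1118*, a log2 fold change of 2.14 with a standard error of 0.07 and limma adjusted p = 2.81e-07. In *Kah-deltaZnF* it was 774, 683 and 773, against 377, 362 and 375 in the *w1118* libraries of that table, a log2 fold change of 0.998 with a standard error of 0.09 and limma adjusted p = 6.1e-06. A count per gene does not tell where in the gene its reads lie, so it does not check the deletions.

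Of the 9 genes, *tld* rose in both mutants and *gbb* rose in *Kah-deltaZnF*, and no other member was called in any comparison. In *Kah-deltaATG* 1 of 7 tested members was called higher, where 14.7% of all genes were, and 0 were called lower, where 10.6% were. In *Kah-deltaZnF* 2 of 7 were called higher, against 23.8% of all genes, and 0 were called lower, against 25.5%. Of the 7, the adjusted p was at most 0.05 for 4 members in each mutant, and *tok* and *cv-2*, and in *Kah-deltaATG* also *gbb*, were left uncalled by the fold limit alone. At an unadjusted p under 0.05, *tok* and *cv-2* were lower in both mutants. By edgeR and DESeq2 both also had an adjusted p under 0.05 in each mutant, and were likewise left uncalled by the fold limit. The median log2 fold change of the 7 was -0.11 in *Kah-deltaATG* and -0.06 in *Kah-deltaZnF*, against medians over all genes of -0.02 and 0.00. The libraries of the mutant did not overlap with those of *w1118* for 6 of 7 members in *Kah-deltaATG*, against 58.2% of all genes, and for 4 of 7 in *Kah-deltaZnF*, against 74.5%.

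**Figure D1:**
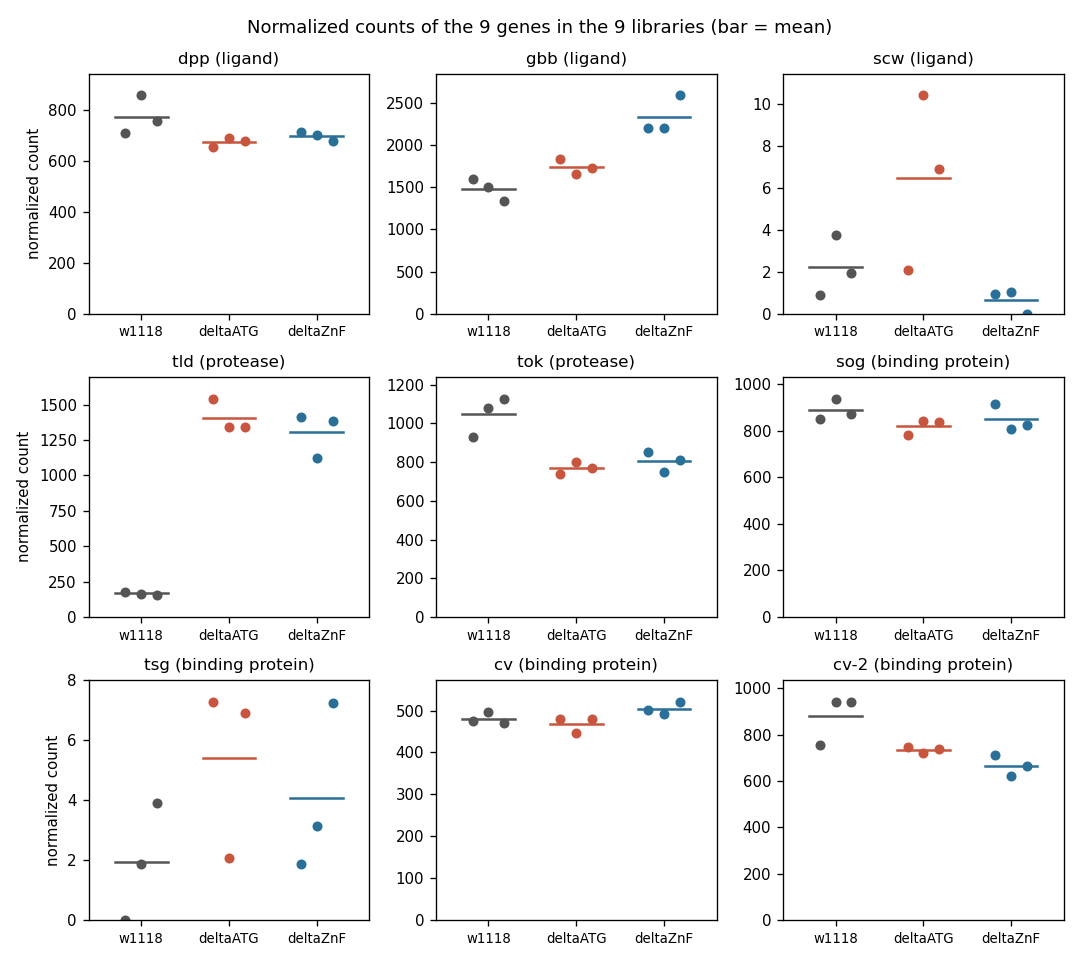
Normalized counts of the 9 genes, 1 panel per gene, with 1 point per library and a bar at the mean of the 3 libraries of a genotype. All 9 libraries were put on 1 scale from their reads, so values differ slightly from those of each table. For *tld* the mutant libraries sit between 1124 and 1542, all above the *w1118* libraries at 154 to 179, whereas *scw* and *tsg* stay at or under 10.4 in every library.

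The protease gene *tld* (FBgn0003719) lies on the plus strand of chromosome 3R, from 24749731 to 24753510 in the BDGP6 assembly, and has 1 annotated transcript of 7 exons. Tolloid is an astacin family metalloprotease known for the cleavage of Sog in the dorsal blastoderm. In *Kah-deltaATG* its normalized count was 1557, 1384 and 1364, against 185, 166 and 155 in *w1118*. In *Kah-deltaZnF* it was 1446, 1152 and 1422, against 184, 169 and 158. Every mutant library was thus far above every control library, and the mutant libraries overlapped with each other.

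The means of *tld* were 1435 ± 106 in *Kah-deltaATG* and 169 ± 15.2 in *w1118* (SD, n = 3 each), a difference of 3.08 on the log2 scale with a standard error of 0.10 (limma adjusted p = 1.89e-07), or 8.46-fold. In *Kah-deltaZnF* the mean was 1340.0 ± 163 against 170.04 ± 12.96 (SD, n = 3 each), which is 2.97 on the log2 scale with a standard error of 0.12 (limma adjusted p = 3.78e-08), or 7.81-fold. By size, 0.684% of the 10972 genes tested in *Kah-deltaATG* and 1.01% of the 10957 tested in *Kah-deltaZnF* had a larger change. Among libraries with over 13% mitochondrial reads, the difference was 2.96 in *Kah-deltaATG* (3 mutant libraries against 1 control) and 2.79 in *Kah-deltaZnF* (2 against 1). Among those under 13% it was 3.14 in *Kah-deltaZnF* (1 against 2). Leaving out any 1 library gave values from 3.02 to 3.15 in *Kah-deltaATG* and from 2.91 to 3.07 in *Kah-deltaZnF*.

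The related protease gene *tok* (FBgn0004885, also called *tolkin*) lies directly upstream of *tld* on the same strand of 3R, from 24719697 to 24749125, with 605 bases between them. Tolkin also cleaves Sog, and is known for roles in motor axon guidance and in the wing cross veins. In *Kah-deltaATG* it had normalized counts of 747, 826 and 785, against 960, 1089 and 1134 in *w1118*. In *Kah-deltaZnF* it was 873, 766 and 832, against 952, 1106 and 1152. The mutant libraries were below all control libraries in both comparisons, by less than the fold limit. The log2 fold change of *tok* was -0.43 ± 0.08 (standard error) in *Kah-deltaATG*, with limma adjusted p = 0.00248, and -0.37 ± 0.10 in *Kah-deltaZnF*, with limma adjusted p = 0.00621, so it was not called. Within the libraries with over 13% mitochondrial reads the difference of *tok* was -0.27 in *Kah-deltaATG* (3 mutant libraries against 1 control) and -0.26 in *Kah-deltaZnF* (2 against 1). Within those under 13% it was -0.37 in *Kah-deltaZnF* (1 against 2).

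**Figure D2:**
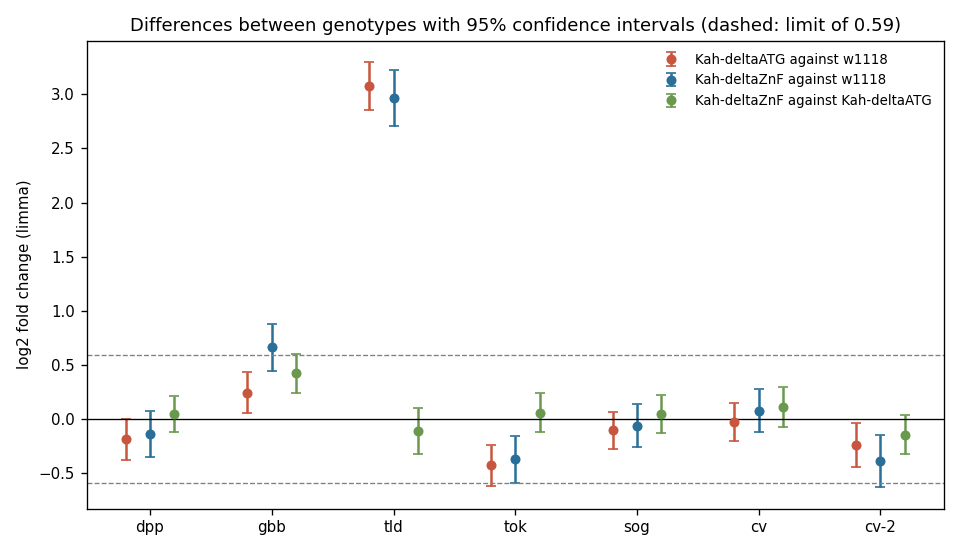
Log2 fold changes of the 7 members that passed the filter, in the comparisons of each mutant with *w1118* and of the mutants with each other. Points are limma estimates, bars are 95% confidence intervals and dashed lines mark the limit of 0.59 in size. The estimates for *tld* against *w1118*, 3.08 and 2.97, stand far above those of the other members, of which only *gbb* in *Kah-deltaZnF*, at 0.66, lies past the limit.

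The makeup of the protease class therefore differed between the mutants and the control. Counts were divided by gene length to compare the genes with each other, and all 9 libraries were put on 1 scale. The level of *tld* was 53.4, 49.1 and 46.0 normalized counts per kb in *w1118*, where that of *tok* was 172, 200 and 208. In *Kah-deltaATG* the level of *tld* was 459, 400 and 399 per kb, and that of *tok* was 137, 148 and 142. In every control library *tok* was thus the higher of the pair, and in every mutant library *tld* was. The share of *tld* in the summed level of both was 23.7%, 19.7% and 18.1% in *w1118*, 77.1%, 73.0% and 73.7% in *Kah-deltaATG*, and 72.7%, 70.8% and 73.4% in *Kah-deltaZnF*. The difference from *w1118* was 54.1 percentage points in *Kah-deltaATG* and 51.8 in *Kah-deltaZnF*, while the mutants differed by -2.27 points. With 3 libraries against 3, an exact two-sided permutation test cannot give a p below 0.1. The exact test gave p = 0.1 for each mutant (adjusted p = 0.12 over 12 tests of shares) and p = 0.2 between the mutants (adjusted p = 0.218).

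**Figure D3:**
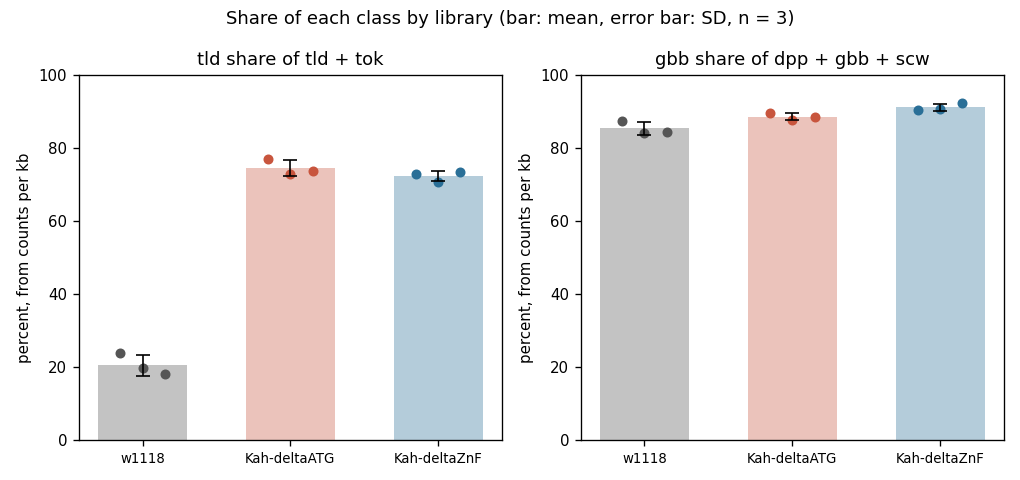
Share of *tld* in the summed level of the Tolloid proteases (left) and of *gbb* in that of the ligands (right), in percent from counts per kb. Points are libraries, bars are means and error bars are SD (n = 3). The *tld* share averages 20.5% in *w1118*, 74.6% in *Kah-deltaATG* and 72.3% in *Kah-deltaZnF*, and the *gbb* share averages 85.3%, 88.5% and 91.1%.

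Around *tld*, the 6 nearest genes on each side did not move as a block. The next gene downstream, *asp* (a microtubule-associated protein of the mitotic spindle), begins 338 bases after the end of *tld* on the same strand and rose in both mutants, by 1.13 in *Kah-deltaATG* (limma adjusted p = 9.05e-06) and 1.51 in *Kah-deltaZnF* (limma adjusted p = 4.47e-07). Its mean was 1462 in *Kah-deltaATG*, 1911 in *Kah-deltaZnF* and 667 in *w1118* (table of *Kah-deltaATG*). The strand setting of the counting is not given in the sources used here, and the annotated exons of *tld* overlap those of no other gene. Further out, *Rpb10* was called higher in *Kah-deltaZnF* (0.86), and *slo* (-1.30), *AstA* (-1.45) and *CG5805* (-0.84) were called lower there. None of these 4 was called in *Kah-deltaATG*. There *slo* (-0.57), *AstA* (-0.55) and *CG5805* (-0.53) had a limma adjusted p under 0.05 and were left uncalled by the fold limit alone. *Rpb10* was at 0.23 there (limma adjusted p = 0.0853). *CG13627*, *CG13630*, *CG13631* and *CG42331* were called in neither mutant, and 2 noncoding genes were too low to test. *Kah* is on the other arm of the same chromosome, 3L.

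**Figure D4:**
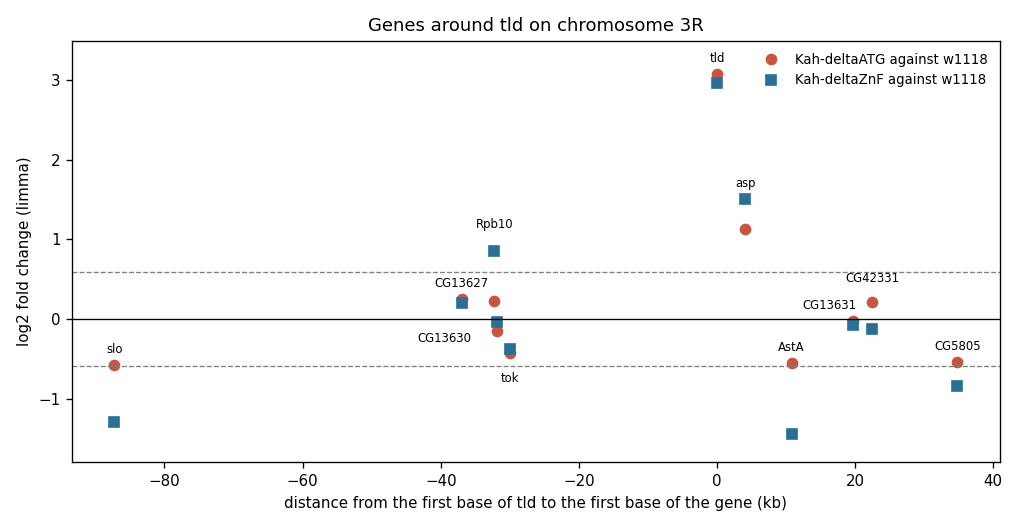
Log2 fold change against *w1118* of *tld* and of the 10 tested genes among the 12 nearest to it on chromosome 3R, by distance in kb. Circles are *Kah-deltaATG*, squares are *Kah-deltaZnF* and dashed lines mark the limit of 0.59. Of the neighbours, only *asp*, at 1.13 and 1.51, lies above the limit in both mutants, and *tok*, at -0.43 and -0.37, lies below 0.

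Across the 9 libraries, the genes whose pattern was most like that of *tld*, among 9348 genes compared, were *CTPsyn* (Pearson's r = 0.996), *Inos* (0.996) and *Mppe* (0.995). They make CTP, make inositol phosphate and encode a metallophosphoesterase, respectively. *CTPsyn* had log2 fold changes of 1.07 and 1.13 in *Kah-deltaATG* and *Kah-deltaZnF*, *Inos* 1.28 and 1.23, and *Mppe* 1.39 and 1.38. The libraries share genotype, so these correlations are descriptions over 9 points and largely repeat the difference between mutants and control.

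The ligand gene *gbb* (FBgn0024234) encodes Glass bottom boat, a BMP that pairs with Dpp in several tissues and signals from muscle to motor neurons. It lies on the plus strand of 2R, from 23851562 to 23853247. Its normalized count was 2250, 2254 and 2655 in *Kah-deltaZnF*, against 1632, 1536 and 1359 in *w1118*. In *Kah-deltaATG* it was 1851, 1707 and 1752, against 1646, 1511 and 1338. Both mutants were above all control libraries, *Kah-deltaZnF* by more. The log2 fold change of *gbb* was 0.66 in *Kah-deltaZnF* (standard error 0.10, limma adjusted p = 0.000147), or 1.58-fold, and 0.24 in *Kah-deltaATG* (standard error 0.08, limma adjusted p = 0.0367), which was not called. Within the libraries with over 13% mitochondrial reads the difference in *Kah-deltaATG* was 0.12 (3 against 1), and with the mitochondrial share as a covariate over the 9 libraries it was 0.18 (limma adjusted p = 0.11).

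The call of *gbb* in *Kah-deltaZnF* lies close to the limit. Without *Kah-deltaZnF* replicate 3 the log2 fold change was 0.58 and without *w1118* replicate 3 it was 0.588, both under 0.59, and a test against a fold change of 1.5 gave an adjusted p of 0.516. For *Kah-deltaZnF* the difference was 0.58 within the libraries with over 13% mitochondrial reads (2 against 1), and within those under 13% it was 0.64 (1 against 2). The genes whose pattern across the 9 libraries was most like that of *gbb* were *Ama* (r = 0.994), *EloC* (0.993) and *smt3* (0.993). *Ama*, which encodes a secreted immunoglobulin domain protein, had log2 fold changes of 0.47 and 1.08 in *Kah-deltaATG* and *Kah-deltaZnF*. For *EloC*, an elongin subunit, they were 0.22 and 0.49, and for *smt3*, the fly SUMO gene, 0.39 and 1.07.

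The ligand gene *dpp* (FBgn0000490) lies on the plus strand of 2L, from 2428372 to 2459823, and encodes the ligand that patterns the dorsal embryo and acts in the midgut visceral mesoderm. Normalized counts of *dpp* were 662, 713 and 690 in *Kah-deltaATG*, against 733, 865 and 762 in *w1118*. In *Kah-deltaZnF* it was 731, 721 and 696, against 726, 879 and 773. The *Kah-deltaATG* libraries were below the controls, and the *Kah-deltaZnF* libraries overlapped with them. The log2 fold change of *dpp* was -0.19 (95% confidence interval -0.38 to 0.00, limma adjusted p = 0.0913) in *Kah-deltaATG* and -0.14 (-0.35 to 0.07, limma adjusted p = 0.206) in *Kah-deltaZnF*. Without *w1118* replicate 2, the control with the highest count, the values were -0.12 and -0.07. Within the libraries with over 13% mitochondrial reads they were -0.07 (3 mutant libraries against 1 control) and -0.04 (2 against 1). Within those under 13% the value was -0.18 in *Kah-deltaZnF* (1 against 2). Both confidence intervals leave out a change of 0.59 in either direction for this whole-embryo sum, which does not show the level within the visceral mesoderm.

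The ligand gene *scw* (FBgn0005590, minus strand of 2L, 19699379 to 19700968) encodes Screw, which pairs with Dpp in the blastoderm and is known for early, transient expression. It was too low to test. It had 1, 4 and 2 reads in *w1118*, 2, 10 and 7 in *Kah-deltaATG* and 1, 1 and 0 in *Kah-deltaZnF*. The sums over 3 libraries were 7 reads (exact 95% Poisson interval 2.81 to 14.4), 19 (11.4 to 29.7) and 2 (0.242 to 7.22), intervals that cover counting error only. An exact two-sided permutation test of the normalized counts gave p = 0.2 for *Kah-deltaATG* against *w1118*, p = 0.3 for *Kah-deltaZnF* and p = 0.1 between the mutants, the smallest it can give (adjusted p = 0.4, 0.45 and 0.4 over 6 tests). With no filter on low values, limma called *scw* lower in *Kah-deltaZnF* than in *Kah-deltaATG* (log2 fold change -2.05, limma adjusted p = 0.0134), at 2 reads against 19.

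Per kb, *gbb* made up most of the ligand RNA in each genotype. Its share of the summed level of *dpp*, *gbb* and *scw* was 87.4%, 84.2% and 84.4% in *w1118*, 89.5%, 87.6% and 88.4% in *Kah-deltaATG*, and 90.5%, 90.6% and 92.2% in *Kah-deltaZnF*. The *dpp* share was 14.6% ± 1.72 in *w1118*, 11.2% ± 0.74 in *Kah-deltaATG* and 8.90% ± 0.934 in *Kah-deltaZnF* (SD, n = 3 each). For both genes the 3 genotypes did not overlap, and each exact two-sided permutation test gave p = 0.1 (adjusted p = 0.12), the smallest that 3 against 3 allows before adjustment. Since shares of a class sum to a whole, the values for *dpp* and *gbb* are not separate evidence.

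The binding protein genes were called in no comparison. *sog* (FBgn0003463, minus strand of X, 15603283 to 15633434) encodes Short gastrulation, the fly counterpart of chordin and the substrate of Tolloid. Its normalized count was 788, 867 and 854 in *Kah-deltaATG*, against 880, 943 and 878 in *w1118*, and 935, 826 and 845 in *Kah-deltaZnF*, against 872, 959 and 891. The *Kah-deltaATG* libraries were just below the controls, and the *Kah-deltaZnF* libraries overlapped with them. The log2 fold change of *sog* was -0.11 (95% confidence interval -0.27 to 0.06, limma adjusted p = 0.255) and -0.06 (-0.26 to 0.13, limma adjusted p = 0.545).

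*cv-2* (FBgn0000395, minus strand of 2R, 21355015 to 21379464) encodes Crossveinless 2, a BMP-binding protein of the cell surface known from the cross veins of the pupal wing. Its normalized count was 756, 743 and 752 in *Kah-deltaATG*, against 783, 947 and 947 in *w1118*, and 730, 636 and 685 in *Kah-deltaZnF*, against 775, 963 and 962. Both mutants were below all controls, and the control nearest to them was *w1118* replicate 1. The log2 fold change of *cv-2* was -0.24 ± 0.09 (standard error) with limma adjusted p = 0.0457 in *Kah-deltaATG* and -0.39 ± 0.11 with limma adjusted p = 0.00796 in *Kah-deltaZnF*, both under the limit. Within the libraries with over 13% mitochondrial reads, where *w1118* replicate 1 is the only control, the difference in *Kah-deltaATG* was -0.04. All *Kah-deltaATG* libraries were over 13%, so the mitochondrial share and that 1 control cannot be told apart there. In *Kah-deltaZnF* the difference was -0.24 within the libraries over 13% and -0.40 within those under 13%. With the mitochondrial share added as a covariate over the 9 libraries, the limma adjusted p in *Kah-deltaATG* was 0.161.

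*cv* (FBgn0000394, plus strand of X, 5690002 to 5693084) encodes Crossveinless, a protein of the Tsg family that also acts in the wing cross veins. Normalized counts of *cv* were 485, 460 and 489 in *Kah-deltaATG*, against 491, 500 and 473 in *w1118*, and 513, 505 and 535 in *Kah-deltaZnF*, against 487, 508 and 481. The libraries of the genotypes overlapped in both comparisons. The log2 fold change of *cv* was -0.03 (95% confidence interval -0.21 to 0.15, limma adjusted p = 0.765) and 0.07 (-0.13 to 0.27, limma adjusted p = 0.483). Exons of *cv* overlap 987 bases of the antisense RNA *asRNA:CR45525* and 140 bases of *CG3149* on the other strand. Without a known strand setting, the shared bases may affect the count of *cv* in either direction.

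*tsg* (FBgn0003865, minus strand of X, 11988062 to 11988948) encodes Twisted gastrulation, which binds BMPs together with Sog in the blastoderm. It was too low to test, with 0, 2 and 4 reads in *w1118*, 7, 2 and 7 in *Kah-deltaATG* and 2, 3 and 7 in *Kah-deltaZnF*. The sums were 6 (exact 95% Poisson interval 2.2 to 13.1), 16 (9.15 to 26.0) and 12 (6.2 to 21.0), and the ranges overlapped. Exact two-sided permutation tests of *tsg* gave p = 0.2, p = 0.5 and p = 0.7 for *Kah-deltaATG*, *Kah-deltaZnF* and the mutants against each other (adjusted p = 0.4, 0.6 and 0.7 over 6 tests). The blastoderm partners *scw* and *tsg* were thus near the limit of detection in every genotype.

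In *w1118* the order of levels per kb was *gbb* (875 ± 79.2), *cv* (234 ± 6.65), *cv-2* (203 ± 24.5), *tok* (193 ± 19.2), *dpp* (149 ± 14.6), *sog* (138 ± 6.91), *tld* (49.5 ± 3.71), *tsg* (2.18 ± 2.21) and *scw* (1.39 ± 0.91, SD, n = 3 each). The ranges of *cv-2* and *tok*, of *dpp* and *sog*, and of *tsg* and *scw* overlapped, so those neighbours do not differ beyond their spread. In both mutants *tld* moved from rank 7 to rank 2, below *gbb* and above *cv*, at 419 ± 34.6 per kb in *Kah-deltaATG* and 389 ± 47.4 in *Kah-deltaZnF* (SD, n = 3 each). The order of the other 8 genes among themselves was the same in all 3 genotypes.

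**Figure D5:**
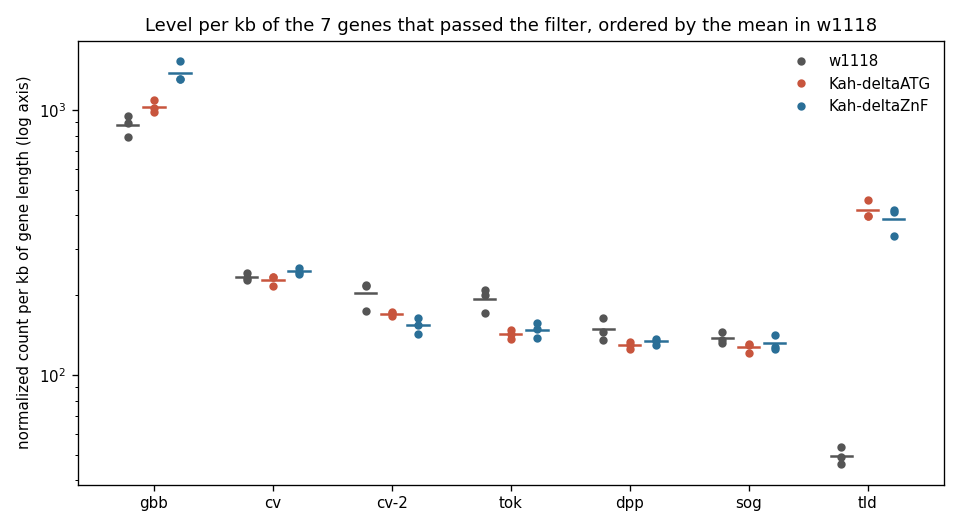
Level of the 7 members that passed the filter, in normalized counts per kb of gene length on a log axis, ordered by the mean in *w1118*. Points are libraries and bars are means of 3. In *w1118* the genes run from *gbb* at 875 to *tld* at 49.5 per kb, and in the mutants *tld* lies second, at 419 and 389.

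Between the mutants, 0 of 7 members were called in either direction. Of all 10850 genes tested there, 5.68% were called higher in *Kah-deltaZnF* and 12.9% lower. At an unadjusted p under 0.05 limma found 1 member, *gbb*. For *gbb*, edgeR gave a log2 fold change of 0.38 (adjusted p = 0.00222) and DESeq2 0.39 (adjusted p = 0.000156), so under all 3 tools the fold limit alone left it uncalled. The libraries did not overlap for 3 of 7 members (*gbb*, *cv* and *cv-2*), against 60.4% of all genes. *gbb* was higher in *Kah-deltaZnF* by a log2 fold change of 0.42 (95% confidence interval 0.24 to 0.60, limma adjusted p = 0.00114), past the p threshold and under the fold limit. For *tld* the difference was -0.11 (-0.32 to 0.10, limma adjusted p = 0.354), and for *tok* it was 0.06 (-0.12 to 0.24, limma adjusted p = 0.566).

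Of all genes, 14.7% were higher and 10.6% lower in *Kah-deltaATG*, and 23.8% and 25.5% in *Kah-deltaZnF*. Of 14 maternal genes, 10 were higher and 0 lower in each mutant, with medians of 1.25 in *Kah-deltaATG* and 1.46 in *Kah-deltaZnF*. Their summed normalized count ran from 12680 to 14870 in *w1118*, from 23830 to 25990 in *Kah-deltaATG* and from 27470 to 31970 in *Kah-deltaZnF*. Among them, *swa*, *osk*, *bcd* and *plu*, products of the female germ line, rose by 1.85, 2.25, 2.28 and 2.26 in *Kah-deltaATG* and by 3.43, 2.71, 2.51 and 2.39 in *Kah-deltaZnF*. The summed count is weighted towards *smg*, with a mean of 13632 in *Kah-deltaATG* against 3754 in *w1118*, and 16006 in *Kah-deltaZnF* against 3785. In the other direction, *gcl* (-0.39 and -0.57) and *tud* (-0.35 and -0.49) were lower in both mutants. Their limma adjusted p was under 0.05 in each, and the fold limit alone left them uncalled. The change of *tld* was larger than that of all 14 in *Kah-deltaATG*, and in *Kah-deltaZnF* larger than all but *swa*. The germ cell markers *vas* and *nos*, both also in the maternal list, were higher in both mutants, with a summed count of 195 to 227 in *w1118*, 358 to 400 in *Kah-deltaATG* and 326 to 396 in *Kah-deltaZnF*. The adult ovary markers *Cp38*, *Yp1*, *Yp2* and *Yp3* were low, with summed counts of 47.1 to 65.5, 15.6 to 31.2 and 53.8 to 64.9 in the same order, and *Yp1* stayed at or under 3 in every library.

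Of the early zygotic genes, 2 of 8 were higher in *Kah-deltaATG* (*slam* and *bnk*) and 2 of 7 in *Kah-deltaZnF* (*slam* and *ftz*), against 14.7% and 23.8% of all genes. In each mutant 0 were lower, against 10.6% and 25.5%. The mean of *bnk* was 19.5 in *Kah-deltaATG* and 7.30 in *w1118*, near the filter limit of 10, and it did not pass the filter in the comparison of *Kah-deltaZnF*. *slam*, needed for the first cell membranes, rose by 2.06 and 2.50, whereas *sna* was at -0.02 and 0.07 and *twi* at -0.04 and -0.08. Of 7 late muscle genes, 1 was lower in *Kah-deltaATG* and 7 in *Kah-deltaZnF*, against 10.6% and 25.5% of all genes, with medians of -0.54 and -1.05. Their summed count ran from 340300 to 445700 in *w1118*, from 246000 to 290300 in *Kah-deltaATG* and from 175600 to 220900 in *Kah-deltaZnF*. Of 7 late neuron genes, 0 were lower in *Kah-deltaATG* and 6 in *Kah-deltaZnF*, again against 10.6% and 25.5% of all genes (medians -0.49 and -1.21). The late cuticle list went both ways, with 1 of 6 higher (*knk*) and 2 lower (*ple* and *Ddc*) in each mutant, beside the shares of all genes given above. The tracheal marker *btl*, an FGF receptor gene, rose in both mutants, by 0.66 and 1.15 (limma adjusted p = 0.00167 and 1.17e-05), whereas the tracheal marker *trh* was at -0.16 and -0.04 and was not called. The part of these shifts in the values of *tld* and *gbb* was not tested.

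Among 16 other genes for extracellular BMP and TGF-beta signaling, 1 of 15 tested was higher and 0 lower in *Kah-deltaATG*, and 2 of 16 were higher and 3 lower in *Kah-deltaZnF* (medians -0.02 and 0.04). The shares of all genes called higher and lower were 14.7% and 10.6% in *Kah-deltaATG*, and 23.8% and 25.5% in *Kah-deltaZnF*. *Fur2*, a furin protease that processes proligands, rose by 0.65 and 0.72. In *Kah-deltaZnF*, *dlp*, a glypican that binds secreted ligands, rose by 0.88, and the Activin ligand gene *Actbeta* was lower by a log2 fold change of -0.98. The genes for both collagen IV chains, which bind Dpp, were also lower there, with -1.34 for *Cg25C* and -1.31 for *vkg*. In *Kah-deltaATG* these genes moved the same way, with *dlp* at 0.49, *Actbeta* at -0.38, *Cg25C* at -0.50 and *vkg* at -0.46. There the limma adjusted p of each was under 0.05, and the fold limit alone left them uncalled. No gene of this list reached the size of the *tld* change, since their log2 fold changes ran from -0.50 to 0.65 in *Kah-deltaATG* and from -1.34 to 0.88 in *Kah-deltaZnF*.

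Of 13 receptor, Smad and nuclear regulator genes, 3 were higher and 0 lower in *Kah-deltaATG*, and 5 were higher and 2 lower in *Kah-deltaZnF* (medians 0.00 and 0.12). Over all genes, 14.7% were called higher and 10.6% lower in *Kah-deltaATG*, and 23.8% and 25.5% in *Kah-deltaZnF*. *Mad*, the Smad phosphorylated by BMP receptors, *put*, a type II receptor, and *nej*, a coactivator, were higher in both mutants. In *Kah-deltaZnF* the type I receptor gene *sax* (0.68) and the ubiquitin ligase gene *Smurf* (0.86) also rose, while *wit* (-0.74) and *Smox* (-0.61) fell. In *Kah-deltaATG* they moved the same way, with *sax* at 0.29, *Smurf* at 0.50, *wit* at -0.48 and *Smox* at -0.45. There the limma adjusted p of each was under 0.05, and the fold limit alone left them uncalled. *Dad*, an inhibitory Smad gene induced by Dpp, was not called, at -0.13 in both mutants (limma adjusted p = 0.242 in *Kah-deltaATG* and 0.271 in *Kah-deltaZnF*). *brk*, which Dpp represses, was at -0.01 in *Kah-deltaATG* (limma adjusted p = 0.963) and at 0.33 in *Kah-deltaZnF* (limma adjusted p = 0.0277). It was called in neither, in *Kah-deltaZnF* by the fold limit alone.

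Of the dorsal ectoderm and amnioserosa genes, which respond to BMP in the early embryo, 0 of 9 were called in *Kah-deltaATG* and 3 of 9 were higher in *Kah-deltaZnF* (medians 0.28 and 0.55). Those were *pnr* (0.65), *Doc1* (0.63) and *Doc2* (0.77). Called higher over all genes were 14.7% in *Kah-deltaATG* and 23.8% in *Kah-deltaZnF*, and called lower were 10.6% and 25.5%. Of 5 midgut visceral mesoderm genes, 0 were called in either mutant, with log2 fold changes from -0.27 to 0.20 in *Kah-deltaATG* and from -0.47 to 0.56 in *Kah-deltaZnF*. The largest were those of *tin* and *wg* in *Kah-deltaZnF*, 0.56 and 0.48, under the fold limit (limma adjusted p = 0.00452 and 0.00494). In the other direction, *lab* was at -0.47 there, also under the fold limit (limma adjusted p = 0.0216).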

How the data were processed

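Whole embryos of *Kah-deltaATG*, *Kah-deltaZnF* and *w1118* were profiled by paired-end RNA-seq, with 3 libraries each. The authors aligned reads to BDGP6 with HISAT2 (version 2.0.5). The submitters' processing notes also name featureCounts (1.5.0-p3) and DESeq2 (1.20.0). The strand setting is not given in the sources used here. The deposited signal of a gene in each of the 2 tables (14631 genes for *Kah-deltaATG*, 14584 for *Kah-deltaZnF*) is its reads divided by the library's size factor, here called the normalized count. The authors' columns of fold changes and p-values were not used. Dividing each value by what 1 read is worth gave whole reads (within 0.01) for 100% of values, and the *w1118* reads were equal in both tables for all 14306 shared genes. No pair of replicates was a duplicate, since a chi-square test of their reads gave 5.42 to 71.4 per degree of freedom.

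Comparisons with *w1118* used limma (3.58.1, R 4.3.3) with a mean-variance trend on log2(value + 1). The mutants were compared on recovered reads, scaled together by the median of ratios. edgeR (4.0.16) and DESeq2 (1.42.0) were run on the reads as alternatives. The limma, edgeR and DESeq2 steps were tested on simulated data. Positions and exons come from the Ensembl annotation of BDGP6.54, whose coordinates of the members equal those in the tables. Sequences were not analysed here. Python 3.11.15 with matplotlib 3.10.9 made the plots.

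The members and gene lists were chosen with earlier results of these data known. The genes named are the 9 members, *Kah*, the neighbours of *tld*, up to 4 genes of each other list called the same way in both mutants, and the 3 genes most like each called member (mean of at least 50). Other list genes were named after their values were seen. Same-numbered libraries of *Kah-deltaATG* and *w1118* had positively correlated deviations from their group means (r = 0.433, 0.256 and 0.157). Such deviations within a group of 3 depend on each other, and *w1118* replicate 3 was closer to *Kah-deltaATG* replicate 2 (r = 0.246). The labels describe no shared batch, so a pairing by number is not established. A fit with a block by replicate number changed no call of a member.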

Additional observations from a re-analysis of the deposited data

Results flagged for a closer look

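The effect on *gbb* differed between the mutants. Its log2 fold change was 0.42 higher in *Kah-deltaZnF* than in *Kah-deltaATG* (standard error 0.08, limma adjusted p = 0.00114), and between 0.34 and 0.46 under all alternatives run. This is under the fold limit, so *gbb* was not called, and 36.3% of all genes tested had a larger difference in size. In 3 of 3 *Kah-deltaZnF* libraries *gbb* was above all *Kah-deltaATG* libraries, where 60.4% of all genes had no overlap between the mutants. *Kah* itself was 1.14 lower on the log2 scale in *Kah-deltaZnF* (log2 fold change -1.14, limma adjusted p = 1.16e-06), in 3 of 3 libraries.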

How the results depend on the processing

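Of 408 alternative fits of the 7 tested members and *Kah*, 402 kept their direction and their side of the threshold. Alternatives covered the pseudocount, the filter, TMM scaling, edgeR, DESeq2, the fold test, a replicate block, all 9 libraries, a mitochondrial term and each library left out. The 3 calls lost were those of *gbb* in *Kah-deltaZnF*. A test against a fold change of 1.5 called 1052 genes in *Kah-deltaATG*, 3288 in *Kah-deltaZnF* and 309 between the mutants, and 1 member in *Kah-deltaZnF*, against 2780, 5400 and 2019 genes and 2 members in the fits reported. With a library left out, 1 to 2 members were called in *Kah-deltaZnF*. With no filter, 1 member (*scw*) was called between the mutants. Between the mutants, *tok* and *sog* turned direction at sizes near 0. With the mitochondrial share as a term they were at -0.00083 and -0.00145, and with a library left out *sog* ran from -0.00835 to 0.082. With a replicate block, 2840 genes were called in *Kah-deltaATG*, 5334 in *Kah-deltaZnF* and 1985 between the mutants, and the members called stayed at 1, 2 and 0. Same-numbered libraries of *Kah-deltaZnF* did not deviate together with those of *w1118* (r = -0.405, -0.19 and -0.238) or of *Kah-deltaATG* (-0.146, -0.143 and 0.00212). Such deviations depend on each other within a group, so they cannot exclude a shared batch, and a pairing by number is not established. Shares of a class kept their direction with no division by length and with each library left out. Depth limits *scw* and *tsg*, at 0 to 10 reads per library.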
